A study of Mus musculus with 9 samples.

Results

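The enzymes and carriers that burn fatty acids in liver mitochondria and make ketone bodies from the product were followed across 3 diets. The set was a list of 31 genes, taken by symbol from the deposited count files and not chosen by a measured value. It covered 31 of the 23337 genes counted, and all 31 were among the 12587 genes that passed a filter on low counts. By role they were 5 genes of fatty acid activation, 5 of the carnitine shuttle, 9 acyl-CoA dehydrogenases, 5 genes of the steps from hydratase to thiolase, 2 auxiliary enzymes for unsaturated fatty acids, 3 of electron transfer and 2 of ketone body metabolism.

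RNA sequencing was done on whole livers of wild-type mice kept on their diet for 12 weeks from 8 weeks of age and dissected in the fed state. The ND livers came from mice on a normal diet, the HFD livers from mice on a 60% high-fat diet, and the HFD_HDCA livers from mice on the same high-fat diet with 0.25% HDCA (hyodeoxycholic acid, a bile acid). Each diet had 3 livers. All 3 groups shared the genotype and the fed state, and no group received HDCA on a normal diet, so HDCA was measured only on top of high-fat feeding. The title of the series names hepatic steatosis and activation of PPARα, the nuclear receptor of fatty acids, and the comparisons here ask whether the genes of fatty acid burning differed between the diets.

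Long-chain fatty acids are joined to coenzyme A outside the mitochondrial matrix, handed to carnitine by CPT1, carried across the inner membrane, and handed back to coenzyme A by CPT2. In the matrix each turn of β-oxidation runs through a dehydrogenase, a hydratase, a second dehydrogenase and a thiolase and releases acetyl-CoA, while the electrons of the first step pass through the electron transfer flavoprotein to the respiratory chain. In liver much of the acetyl-CoA can be turned into acetoacetate and 3-hydroxybutyrate, the ketone bodies that other organs burn, and many of these genes are known targets of PPARα.

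Reads assigned to genes numbered 16994353 to 20509203 per library, so that 3 reads, the limit that a count of 0 allows, stood for 0.152 to 0.182 CPM (counts scaled to library size). Hepatocyte markers dominated every library, with albumin (Alb) at 59440 to 96560 CPM, and the 5 skeletal muscle markers summed to 0 to 0.16 CPM, so the tissue label held. Several libraries stood apart. HFD 1 had the clock gene Dbp at 85.8 CPM against 2.27 and 1.41 in the other HFD livers. ND 1 and HFD_HDCA 1 were also the highest of their groups in Dbp, at 14.6 and 10.5 CPM. The other livers of those groups held 0.752 to 3.58 CPM. The clock gene Arntl was lowest in ND 1, HFD 1 and HFD_HDCA 1 within their groups, at 17.3, 4.71 and 25.3 CPM. The clock genes Nr1d1 and Per2 were highest in ND 1 and HFD 1 but not in HFD_HDCA 1. HFD_HDCA 1 carried 3371 CPM of the acute phase gene Saa1, where HFD_HDCA 2 and HFD_HDCA 3 carried 23.4 and 38.0. HFD 2 had the highest summed adipocyte markers, 36.5 CPM over 6 genes against 2.41 to 20.8 in the other 8 libraries, with the adipocyte hormone gene Adipoq at 1.03 FPKM (fragments scaled to transcript length and sequencing depth) against at most 0.123 in the others, and the lowest summed macrophage markers, 161 CPM. HFD 3 had the highest macrophage markers, 1093 CPM against 416 to 738 in the other 7 libraries, with Marco at 229 CPM against 2.68 to 20.5 in the other 8. The summed lymphocyte markers were low throughout, at 6.29 to 6.69 CPM in the HFD_HDCA livers and 2.68 to 4.97 CPM in the other 6. Of the 10 hepatocyte markers, Ass1 stood at only 0.152 to 0.759 CPM in the counts but at 68.4 to 188 FPKM. For that gene counts and FPKM disagreed, and the reason was not tested. The labels used here give no sex and do not say whether livers of a group shared a cage or litter, so p-values measure the spread between these 9 livers.

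Promoters of 4 of the members called changed are printed. The windows run from 250 bases before to 50 after the annotated start, 5′ to 3′ on the gene's strand, from RefSeq on GRCm38.p6. Slc25a20 has its window at chr9:108661886-108662185 on the plus strand, Cpt1a at chr19:3323051-3323350 on the plus strand, Hadhb at chr5:30155003-30155302 on the plus strand and Slc22a5 at chr11:53891654-53891953 on the minus strand. Capitals mark, in Slc25a20, the only match among the 4 to 2 copies of AGGTCA set 1 base apart with up to 2 mismatches, the known form of a PPARα site, and, in Cpt1a, a single AGGTCA read on the other strand. Hadhb is shown because its window shares 228 bases with that of Hadha, and Slc22a5 because it had the largest log2 fold change of HFD_HDCA against HFD. The windows of Hadh and Acadl are not printed. Both genes had a smaller edgeR p in HFD_HDCA against ND than Cpt1a or Slc22a5, and neither window holds AGGTCA, single or paired.
Slc25a20: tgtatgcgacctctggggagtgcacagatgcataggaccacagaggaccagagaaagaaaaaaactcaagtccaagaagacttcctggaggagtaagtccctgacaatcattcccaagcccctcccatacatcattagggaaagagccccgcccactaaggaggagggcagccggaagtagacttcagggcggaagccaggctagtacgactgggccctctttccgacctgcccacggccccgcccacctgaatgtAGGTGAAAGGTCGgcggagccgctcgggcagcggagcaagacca
Cpt1a: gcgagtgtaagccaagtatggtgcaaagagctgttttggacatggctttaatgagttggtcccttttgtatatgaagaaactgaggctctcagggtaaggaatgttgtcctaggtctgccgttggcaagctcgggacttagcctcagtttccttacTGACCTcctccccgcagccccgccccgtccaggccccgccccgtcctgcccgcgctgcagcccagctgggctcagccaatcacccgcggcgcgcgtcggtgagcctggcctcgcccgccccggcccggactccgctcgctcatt
Hadhb: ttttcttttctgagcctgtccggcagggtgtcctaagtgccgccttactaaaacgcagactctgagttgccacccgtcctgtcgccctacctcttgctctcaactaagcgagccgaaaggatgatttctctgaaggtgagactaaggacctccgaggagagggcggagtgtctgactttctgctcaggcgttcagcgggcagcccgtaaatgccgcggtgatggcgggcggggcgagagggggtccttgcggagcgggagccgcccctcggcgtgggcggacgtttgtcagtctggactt
Slc22a5: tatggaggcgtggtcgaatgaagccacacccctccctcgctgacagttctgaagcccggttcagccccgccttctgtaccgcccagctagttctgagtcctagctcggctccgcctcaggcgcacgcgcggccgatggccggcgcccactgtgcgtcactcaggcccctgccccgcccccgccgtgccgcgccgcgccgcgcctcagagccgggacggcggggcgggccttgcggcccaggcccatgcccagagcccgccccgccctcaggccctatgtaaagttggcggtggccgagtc

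Windows were found for 26 of the 31 members, 28 windows in all, and both strands of each were searched. The paired AGGTCA form was in 3 of the 28 windows, or 10.7%, against 3.86% of all 32851 windows of that length. These 3 were the windows of Slc25a20, Echs1, a hydratase gene, and Etfa, an electron transfer gene, and of these only Slc25a20 was called changed in a comparison. A single AGGTCA, which also counts copies inside a pair, was in 17.9% of member windows and 16.3% of all windows. GGGCGG, the core of a GC box, was in 17 of 28 member windows (60.7%) and in 35.7% of all, while TATAAA was in 0 of 28 and in 13.6% of all. The median GC content was 60.5% in the member windows and 52.7% in all. These matches describe letters in a window and do not show binding.

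Levels were compared between genes in FPKM, which allow for transcript length. Most members were abundant. Over the 9 livers the highest mean belonged to Acaa2, the thiolase of medium and long chains, at 536 FPKM, followed by Acsl1 at 391 and Etfb at 359. The lowest were Acad9 at 8.55, Acad10 at 6.73 and Acad12 at 3.75 FPKM, and even Acad12 stood at the 70.0th percentile of all genes in these tables. Acadm at 239 and Etfa at 238 FPKM were neighbours in this order, but which was higher differed between livers. Etfa was the higher in every ND liver (205.5, 230.5 and 203.8 against 172.6, 191.6 and 156.4 FPKM) and in HFD 1, HFD 3 and HFD_HDCA 1. Acadm was the higher in HFD 2, HFD_HDCA 2 and HFD_HDCA 3. By group mean Acaa2 ranked 1 in each of the 3 groups, but in HFD_HDCA its 565 ± 48.6 FPKM did not differ from the 558 ± 140 of Acsl1 beyond the spread (SD, n = 3 each), and Acsl1 was the higher in HFD_HDCA 2 and HFD_HDCA 3. Slc22a5 and Crat, the carnitine transporter and the carnitine acetyltransferase, ranked 28 and 27 over all livers, the lowest of the 5 carnitine genes.

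**Figure D1:**
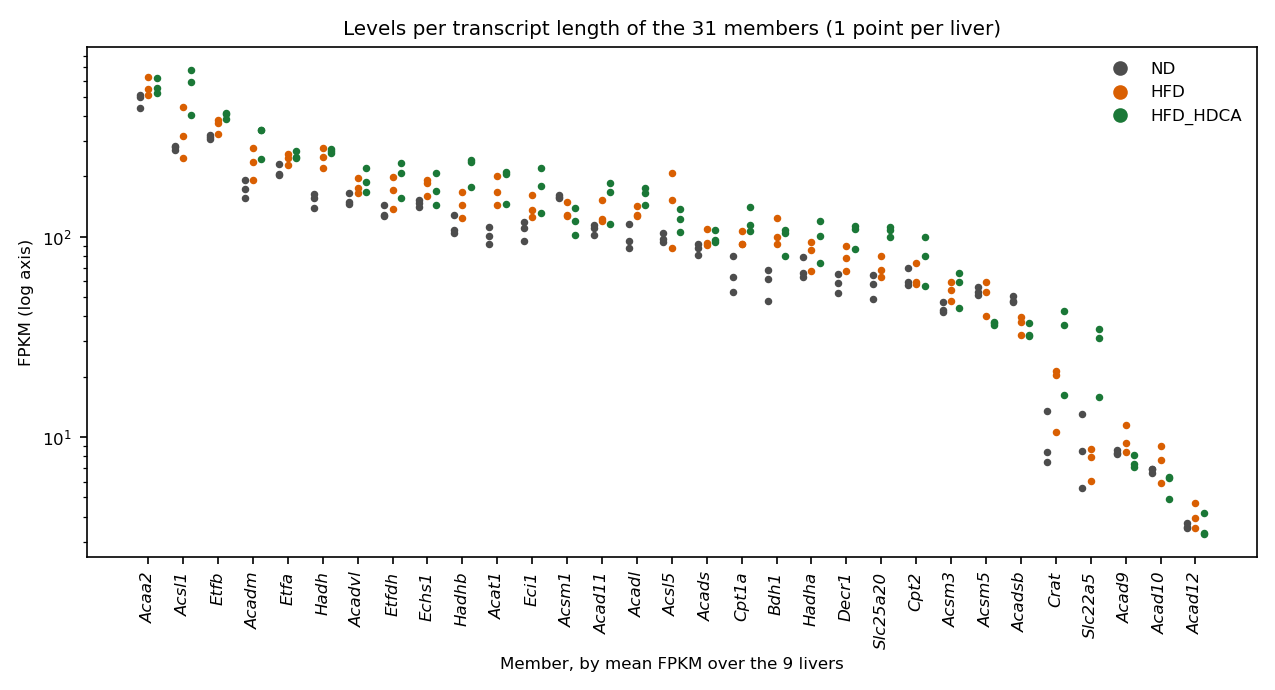
FPKM of the 31 members (log axis), ordered by mean over the 9 livers, with 1 point per liver coloured by diet. Acaa2, with a mean of 536 FPKM, stands at the left, and Acad12, with 3.75 FPKM, at the right. Crat and Slc22a5 lie below most members and spread widely between the diets.

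Taken over the whole list, the livers on HFD_HDCA held the most of these transcripts. The members summed to 9922, 10500 and 9663 CPM in the ND livers, to 10690, 13180 and 11150 CPM in the HFD livers, and to 11950, 15690 and 14980 CPM in the HFD_HDCA livers. The HFD and HFD_HDCA sums overlapped, since HFD 2 lay above HFD_HDCA 1. These sums were scaled to reads on genes without the TMM factors used for single genes. Those factors ran from 0.919 in HFD_HDCA 1 to 1.068 in HFD 1. With a factor of 1.017 in ND 2, the place of HFD 1 above ND 2 depends on this choice. Against ND, 13 members were called higher in HFD_HDCA and 2 lower, by edgeR's quasi-likelihood F test at an adjusted p under 0.05 (Benjamini-Hochberg over all 12587 genes). Among all genes 3.65% were called higher and 2.82% lower in that comparison. Against HFD, 3 members were called higher in HFD_HDCA and 0 lower, with 1.67% of all genes called higher and 1.73% lower. For HFD against ND 0 members were called in either direction, with 0.477% of all genes called each way. In bulk RNA a change in the number of cells of a type and a change in RNA per cell cannot be told apart.

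The 3 comparisons share groups, so they are not independent of each other. The median log2 fold change of the 31 members was 0.17 for HFD against ND, 0.23 for HFD_HDCA against HFD and 0.50 for HFD_HDCA against ND, beside 0.02, -0.002 and 0.03 over all genes tested. Fold changes above 0 were found for 26, 25 and 26 members in the same order. Libraries of the groups compared did not overlap for 5 members higher and 2 lower in HFD against ND, where 10.9% and 9.20% of all genes did so. In HFD_HDCA against HFD these counts were 7 higher and 0 lower, against 11.3% and 11.1% of all genes, and in HFD_HDCA against ND they were 22 higher and 4 lower, against 17.8% and 16.1%.

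**Figure D2:**
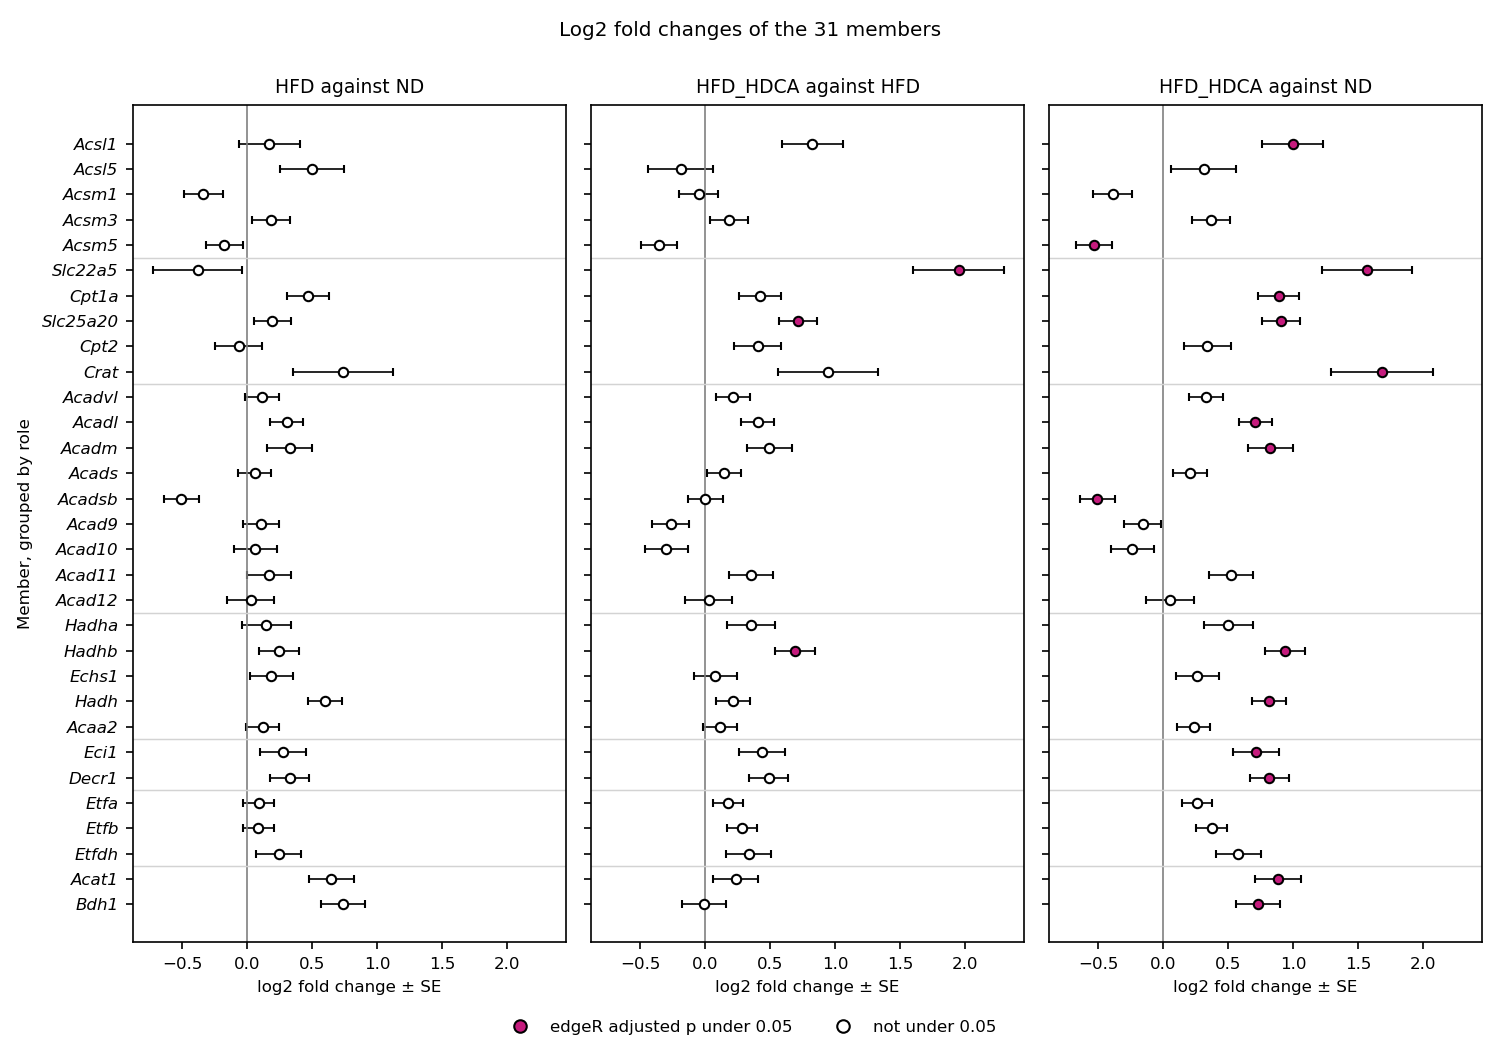
Log2 fold change with its SE for the 31 members, grouped by role, in the 3 comparisons, with filled points for an edgeR adjusted p under 0.05. No point is filled for HFD against ND, 3 are for HFD_HDCA against HFD and 15 are for HFD_HDCA against ND, where 13 lie above 0 and 2 below.

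Within a group, members also moved together from library to library. HFD 2 had the highest HFD value in 27 of the 31 members, while over all genes it was the highest of its group in 36.7%. ND 2 was the highest ND library in 21 members, against 33.9% of all genes. HFD_HDCA 1, the library with high acute phase genes, was the lowest HFD_HDCA library in 20 members, against 40.3% of all genes. Of 8 lymphocyte markers 6 passed the filter, and all 6 had fold changes above 0 in HFD_HDCA, with a median log2 fold change of 0.90 against HFD and 0.92 against ND and 0 called. The part of adipocyte, macrophage and lymphocyte RNA, of the acute phase and of the clock genes in the members' values was not tested, but every comparison was also run without each library.

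**Figure D3:**
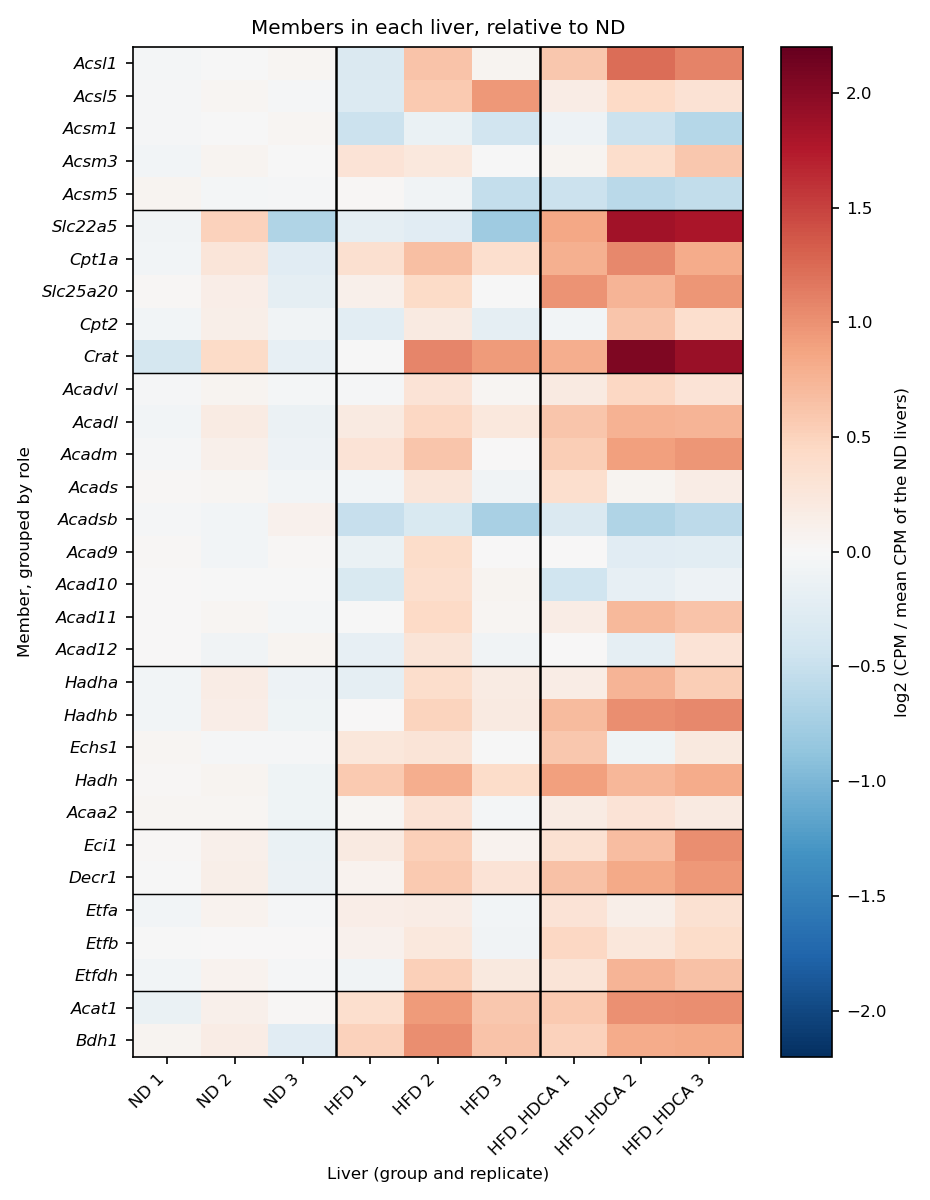
Log2 ratio of each member's CPM to the mean of the ND livers, for 31 members (rows, grouped by role) and 9 livers (columns). HFD 2 is the reddest HFD column, being the highest HFD library in 27 members, and HFD_HDCA 1 is paler than HFD_HDCA 2 and HFD_HDCA 3 in Slc22a5, Crat and Acsl1.

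The carnitine shuttle held the largest fold changes called with HDCA, Slc22a5 against HFD and Crat against ND: 4 of its 5 genes were called higher in HFD_HDCA than in ND and 2 higher than in HFD. Slc22a5, on chromosome 11 from 53864542 to 53891660, encodes OCTN2, the transporter that brings carnitine into the cell. It stood at 30.2, 45.5 and 20.1 CPM in the ND livers, at 28, 27 and 18.5 in the HFD livers and at 57.9, 115 and 111 in the HFD_HDCA livers. All 3 HFD_HDCA livers were above every other liver, with HFD_HDCA 1 the lowest of them, and HFD did not separate from ND. The log2 fold change was 1.95 ± 0.35 (SE) against HFD, a 3.86-fold difference with an edgeR adjusted p of 0.0252. Against ND it was 1.57 ± 0.35 with an adjusted p of 0.0330. The call against HFD held in 5 of 9 leave-one-out fits and ended without ND 1 (adjusted p = 0.0508), HFD 2 (0.0674), HFD 3 (0.0848) or HFD_HDCA 3 (0.0796). The call against ND also held in 5 and ended without ND 1 (0.135), ND 3 (0.0831), HFD_HDCA 2 (0.0580) or HFD_HDCA 3 (0.1).

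Slc25a20, on chromosome 9 from 108662088 to 108684641, encodes the carrier that exchanges acylcarnitine for carnitine across the inner membrane. Its level was 132, 144 and 114 CPM in ND, 141, 175 and 130 in HFD and 257, 219 and 256 in HFD_HDCA. The HFD_HDCA livers lay above all 6 others, and this time HFD_HDCA 1 was not the lowest. The rise against HFD was 0.71 ± 0.14 on the log2 scale (edgeR adjusted p = 0.0280), and it was called in 6 of 9 fits without a library, with an adjusted p of 0.0557 without ND 1, 0.0952 without HFD 3 and 0.0954 without HFD_HDCA 3. The rise against ND was 0.91 ± 0.14 (SE, adjusted p = 0.00698), the smallest adjusted p of any member, and was called in all 9 such fits.

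Cpt1a, on chromosome 19 from 3322334 to 3385733, encodes the liver form of CPT1, the step at which malonyl-CoA holds back fatty acid entry. Cpt1a stood at 371, 462 and 322 CPM in ND, 492, 606 and 498 in HFD and 658, 799 and 679 in HFD_HDCA. The 3 groups did not overlap, and they stepped up from ND to HFD to HFD_HDCA. Neither single step passed the test, with log2 fold changes of 0.47 ± 0.16 (SE, edgeR adjusted p = 0.271) for HFD against ND and 0.42 ± 0.16 (adjusted p = 0.162) for HFD_HDCA against HFD. The span from ND to HFD_HDCA, 0.89 ± 0.16, did pass (adjusted p = 0.0121), and it was lost without ND 1 (0.0713) or ND 3 (0.0537).

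Crat, on chromosome 2 from 30400471 to 30415813, encodes carnitine acetyltransferase, which moves short acyl groups between coenzyme A and carnitine. Its values were 47.0, 82.2 and 54.1 CPM in ND, 60.8, 128 and 117 in HFD and 106, 254 and 227 in HFD_HDCA. HFD and HFD_HDCA overlapped, because HFD_HDCA 1 lay below HFD 2 and HFD 3. Against ND the log2 fold change was 1.68 ± 0.39 (SE, edgeR adjusted p = 0.0410). This call held in 3 of 9 fits without a library, with an adjusted p of up to 0.158 (without ND 1), and it was not made in the FPKM tables (limma adjusted p = 0.0658). It ended without any of the 3 ND livers, HFD 3, HFD_HDCA 2 or HFD_HDCA 3. Cpt2, which hands the acyl group back to coenzyme A, was the member of the shuttle with no call, at 193 ± 15.2, 185 ± 32.6 and 245 ± 55.6 CPM in ND, HFD and HFD_HDCA (SD, n = 3 each), and its log2 fold change against ND was 0.34 ± 0.18 (SE, adjusted p = 0.254).

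**Figure D4:**
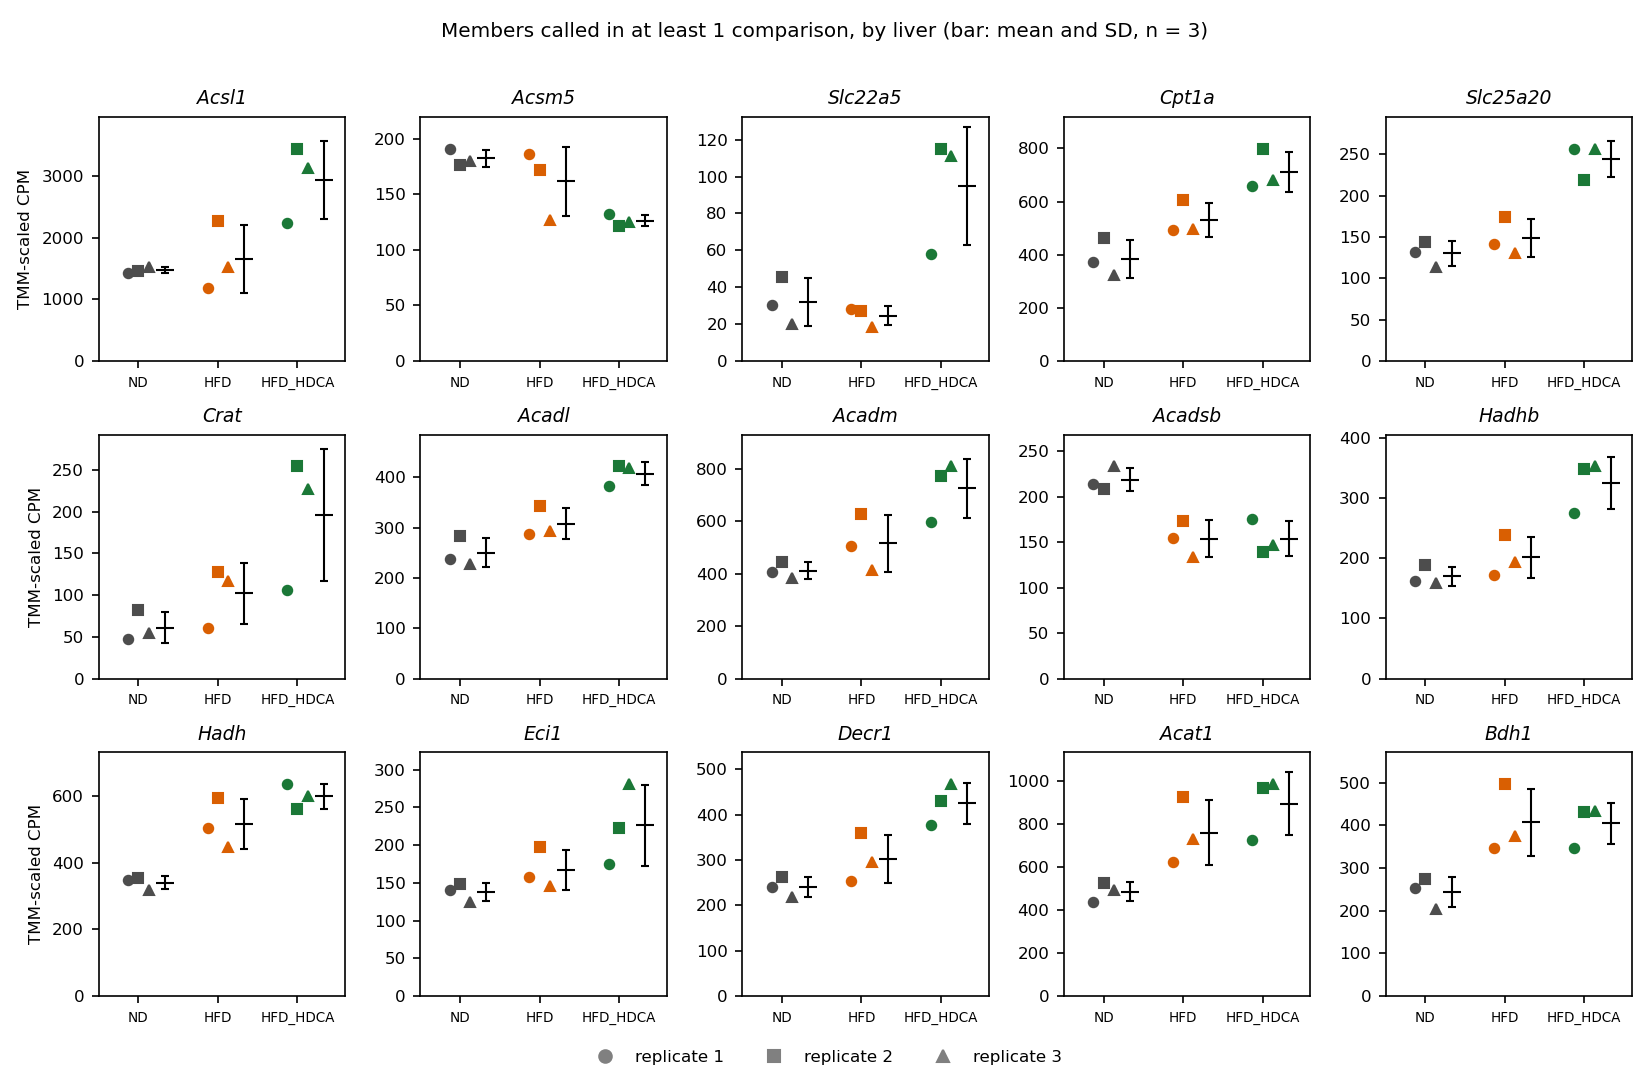
TMM-scaled CPM of the 15 members called in at least 1 comparison, with 1 point per liver (marker by replicate number) and the mean and SD of each group. Slc22a5 and Slc25a20 sit higher in the 3 HFD_HDCA livers than in the other 6, and Acadsb sits lower in both high-fat groups than in ND.

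Among the genes of fatty acid activation Acsl1 and Acsm5 were called, in opposite directions. Acsl1, on chromosome 8 from 46471037 to 46536051, encodes the main long-chain acyl-CoA synthetase of liver. It stood at 1430, 1470 and 1526 CPM in ND, 1181, 2268 and 1534 in HFD and 2238, 3451 and 3140 in HFD_HDCA. The ND livers were tightly grouped, with a coefficient of variation of 3.28%, whereas the HFD livers varied by 33.4% and HFD 2 lay above HFD_HDCA 1. Acsl1 rose 2-fold from ND to HFD_HDCA (log2 fold change 0.996 ± 0.23, SE, edgeR adjusted p = 0.0329). That call ended without ND 1 (0.135), ND 2 (0.111), ND 3 (0.0950), HFD_HDCA 2 (0.0582) or HFD_HDCA 3 (0.1). Against HFD the log2 fold change was 0.83 ± 0.23, with an adjusted p of 0.0809 that fell to 0.0357 without HFD 2 and to 0.0441 without HFD_HDCA 1.

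Acsl5, a second long-chain synthetase, was at 419 ± 12.6 CPM in ND, 592 ± 236 in HFD and 520 ± 49.5 in HFD_HDCA (SD, n = 3 each). Its HFD livers ran from 340 to 807 CPM and no comparison called it, with an adjusted p of 0.508 for HFD against ND that became 0.0324 without HFD 1.

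The 3 Acsm genes encode synthetases for medium-chain acids and stand in 1 cluster on chromosome 7 in the order Acsm5, Acsm1, Acsm3, with Acsm2 and Acsm4 between them. They did not move alike. Acsm5, from 119519463 to 119545551, was at 191, 177 and 180 CPM in ND, 186, 172 and 127 in HFD and 132, 122 and 125 in HFD_HDCA. The HFD_HDCA livers lay below every ND liver, and HFD 3 was already at their level. Acsm5 fell by 0.53 ± 0.14 (SE) on the log2 scale from ND to HFD_HDCA, with an edgeR adjusted p of 0.04999, just under the threshold. The call held in 2 of 9 fits without a library, those without HFD 1 or HFD 3, with an adjusted p of up to 0.176 (without ND 1). Acsm1 stood at 422 ± 10.5, 334 ± 42.6 and 322 ± 60.6 CPM and Acsm3 at 154 ± 7.19, 175 ± 19.7 and 198 ± 35.6 CPM in ND, HFD and HFD_HDCA (SD, n = 3 each). Neither was called, with adjusted p for HFD_HDCA against ND of 0.137 for Acsm1 and 0.145 for Acsm3. Without HFD_HDCA 1 both passed, in opposite directions, with log2 fold changes of -0.55 (0.0327) for Acsm1 and 0.49 (0.0489) for Acsm3.

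Of the 9 acyl-CoA dehydrogenases, which take the first step of each β-oxidation turn, 2 were called higher in HFD_HDCA than in ND and 1 lower. Acadm, the medium-chain enzyme, on chromosome 3 from 153922357 to 153944632, stood at 406, 445 and 382 CPM in ND, 506, 629 and 413 in HFD and 598, 771 and 809 in HFD_HDCA. The HFD livers overlapped both other groups. The log2 fold change from ND to HFD_HDCA was 0.82 ± 0.17 (SE, edgeR adjusted p = 0.0228), and the call ended without ND 1 (0.103), ND 2 (0.0639), ND 3 (0.0887) or HFD_HDCA 3 (0.0829).

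Acadl, the long-chain enzyme, on chromosome 1 from 66830839 to 66863277, was at 238, 282 and 228 CPM in ND, 287, 343 and 294 in HFD and 382, 422 and 418 in HFD_HDCA. As with Cpt1a, the 3 groups were fully separated in the order ND, HFD, HFD_HDCA. The difference from ND to HFD_HDCA was 0.71 ± 0.13 on the log2 scale (SE, edgeR adjusted p = 0.0119), lost without ND 1 (0.0748) or ND 3 (0.0586). The single steps were 0.30 ± 0.13 (adjusted p = 0.383) and 0.40 ± 0.13 (adjusted p = 0.105).

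Acadsb, which acts on short branched chains in isoleucine breakdown, on chromosome 7 from 131410601 to 131448944, went the other way. It stood at 214, 209 and 234 CPM in ND, 155, 174 and 133 in HFD and 176, 139 and 147 in HFD_HDCA. Both high-fat groups lay below all ND livers and overlapped each other, with means of 153.9 ± 20.2 and 153.9 ± 19.5 CPM (SD, n = 3 each). The log2 fold change against ND was -0.51 ± 0.13 (SE) in both, and the edgeR adjusted p was 0.143 for HFD and 0.04999 for HFD_HDCA, because the adjustment runs over different sets of p-values. A call in 1 comparison and not in the other does not show a difference between the 2 diets here. The HFD_HDCA call ended without any of the 3 ND livers (0.113 to 0.149), HFD_HDCA 2 (0.0791) or HFD_HDCA 3 (0.147), and HFD passed without HFD_HDCA 1 (0.0471).

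The other 6 dehydrogenases were not called. Acadvl, the very-long-chain enzyme, was at 465 ± 19.5, 503 ± 63.6 and 583 ± 53.4 CPM in ND, HFD and HFD_HDCA (SD, n = 3 each). Acads, the short-chain enzyme, was at 211 ± 8.16, 220 ± 30.3 and 243 ± 26.7 CPM in the same order. Acad11 stood at 493 ± 15.2, 554 ± 97.1 and 707 ± 138 CPM, with an edgeR adjusted p of 0.0946 against ND that became 0.0240 without HFD_HDCA 1. Acad9, known also for its part in building respiratory complex I, stood at 41.4 ± 1.29, 44.6 ± 8.87 and 37.1 ± 3.76 CPM. Acad10 was at 29.9 ± 0.123, 31.2 ± 7.61 and 25.4 ± 2.87 CPM, and its neighbour Acad12, 2087 bases away on chromosome 5, at 7.14 ± 0.345, 7.26 ± 1.3 and 7.40 ± 1.33 CPM. For Acad9, Acad10 and Acad12 the log2 fold changes over the 3 comparisons lay between -0.30 and 0.11.

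In the later steps of the cycle, Hadh and Hadhb were called and Hadha, Echs1 and Acaa2 were not. Hadh, the 3-hydroxyacyl-CoA dehydrogenase of short and medium chains, on chromosome 3 from 131233419 to 131272101, was at 348, 356 and 318 CPM in ND, 506, 595 and 449 in HFD and 636, 562 and 601 in HFD_HDCA. All 6 livers on high-fat feeding were above all ND livers, and HFD and HFD_HDCA overlapped. Against ND the log2 fold change was 0.60 ± 0.13 (SE) in HFD, with an edgeR adjusted p of 0.0715, the smallest of any member in that comparison. DESeq2 called it (adjusted p = 0.000533), as did limma on FPKM (0.0183), and edgeR did so without HFD_HDCA 1 (0.0416). In HFD_HDCA against ND it was 0.82 ± 0.13 (adjusted p = 0.00777), called in all 9 fits without a library.

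Hadha and Hadhb encode the α and β subunits of the mitochondrial trifunctional protein, which carries out the last 3 steps for long chains. The genes lie head to head on chromosome 5, Hadha on the minus strand from 30118304 to 30155162 and Hadhb on the plus strand from 30155248 to 30184593, with 85 bases between them. Hadhb stood at 163, 188 and 160 CPM in ND, 172, 238 and 194 in HFD and 275, 348 and 353 in HFD_HDCA. The HFD_HDCA livers lay above all 6 others. Hadhb rose by 0.69 ± 0.15 (SE) on the log2 scale against HFD (edgeR adjusted p = 0.0395) and by 0.93 ± 0.15 against ND (adjusted p = 0.00824). The call against HFD held in 2 of 9 fits without a library, those without HFD 2 or HFD_HDCA 1, with an adjusted p of up to 0.126 (without HFD_HDCA 3), and it was not made in FPKM (limma adjusted p = 0.0687). The call against ND held in 8 and reached 0.0530 without ND 1.

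Hadha was at 359, 421 and 349 CPM in ND, 329, 495 and 426 in HFD and 419, 628 and 549 in HFD_HDCA, so its groups overlapped. It was not called, with log2 fold changes of 0.35 ± 0.19 (SE, edgeR adjusted p = 0.295) against HFD and 0.50 ± 0.19 (adjusted p = 0.125) against ND. The ratio of the subunit transcripts, Hadhb over Hadha in FPKM, was added after the values had been seen. It was 1.65, 1.63 and 1.67 in the ND livers, 1.86, 1.77 and 1.67 in the HFD livers and 2.41, 1.997 and 2.35 in the HFD_HDCA livers. All 3 HFD_HDCA livers were above the other 6. The group means were 1.65 ± 0.019, 1.76 ± 0.096 and 2.25 ± 0.224 (SD, n = 3 each). An exact two-sided permutation test gave p = 0.1 for HFD_HDCA against HFD and against ND and 0.2 for HFD against ND, where 0.1 is the smallest p that 3 against 3 allows. In CPM the ratio was 0.447 to 0.457 in ND, 0.456 to 0.523 in HFD and 0.553 to 0.656 in HFD_HDCA. In every liver Hadha was thus the higher in CPM and Hadhb the higher in FPKM, and the reason was not tested.

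**Figure D5:**
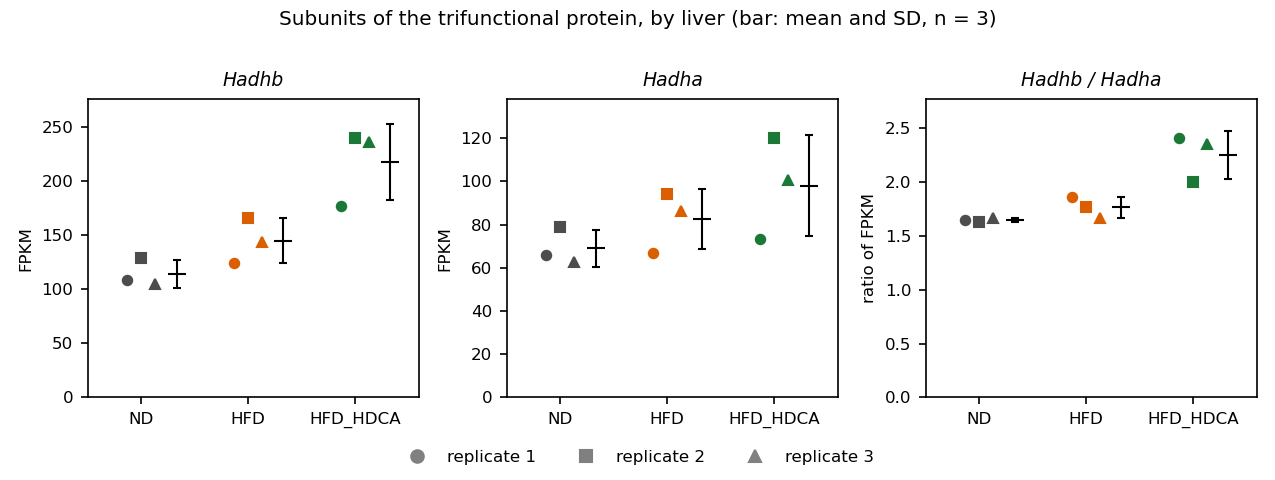
FPKM of Hadhb and of Hadha and their ratio in each liver, with the mean and SD of 3 livers per diet. The ratio lies between 1.63 and 1.86 in the 6 ND and HFD livers and between 1.997 and 2.41 in the HFD_HDCA livers.

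Echs1, the short-chain hydratase, stood at 280 ± 8.21, 318 ± 34.7 and 336 ± 80.7 CPM in ND, HFD and HFD_HDCA (SD, n = 3 each). HFD_HDCA 2 lay below all ND livers at 262 CPM while HFD_HDCA 1 was the highest at 422. Acaa2, the thiolase, was at 892 ± 53.0, 968 ± 129 and 1048 ± 47.3 CPM in the same order, with a log2 fold change of 0.23 ± 0.13 (SE, edgeR adjusted p = 0.274) from ND to HFD_HDCA.

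Both auxiliary enzymes, which prepare the double bonds of unsaturated fatty acids for the cycle, were called higher in HFD_HDCA than in ND. Decr1, the dienoyl-CoA reductase, on chromosome 4 from 15917240 to 15945507, was at 241, 263 and 220 CPM in ND, 253, 359 and 296 in HFD and 377, 430 and 468 in HFD_HDCA. The HFD_HDCA livers were above the other 6. Its log2 fold change against ND was 0.82 ± 0.15 (SE, edgeR adjusted p = 0.0132), and the call ended without ND 1 (0.0716), ND 3 (0.0633) or HFD_HDCA 3 (0.0576). Against HFD it was 0.49 ± 0.15 (adjusted p = 0.101).

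Eci1, the enoyl-CoA isomerase, on chromosome 17 from 24426641 to 24439348, was at 141, 149 and 125 CPM in ND, 158, 198 and 146 in HFD and 175, 222 and 281 in HFD_HDCA. HFD_HDCA 1 lay below HFD 2, but all HFD_HDCA livers were above all ND livers. Eci1 rose by 0.71 ± 0.18 (SE) against ND (edgeR adjusted p = 0.0430). The call was kept in 4 of 9 fits, ended without any of the 3 ND livers (0.101 to 0.143), HFD_HDCA 2 (0.0526) or HFD_HDCA 3 (0.138), and was not made in FPKM (limma adjusted p = 0.0606).

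None of the 3 electron transfer genes was called by edgeR in any comparison. Etfa and Etfb encode the subunits of the flavoprotein that takes electrons from the acyl-CoA dehydrogenases, and Etfdh encodes the enzyme that passes them to ubiquinone. In ND, HFD and HFD_HDCA, Etfa was at 403 ± 19.4, 428 ± 34.4 and 482 ± 34.7 CPM, Etfb at 274 ± 2.40, 291 ± 31.6 and 354 ± 25.6 CPM, and Etfdh at 411 ± 19.6, 486 ± 102 and 614 ± 99.7 CPM (SD, n = 3 each). Every HFD_HDCA liver was above every ND liver for all 3 genes, with log2 fold changes of 0.26 ± 0.12 for Etfa (SE, edgeR adjusted p = 0.188), 0.37 ± 0.12 for Etfb (0.0860) and 0.58 ± 0.17 for Etfdh (0.0744). DESeq2 called Etfb (adjusted p = 0.0216) and Etfdh (0.0219). In edgeR Etfb passed without HFD_HDCA 2 (0.0483), and Etfdh passed without HFD_HDCA 1 (0.0332) or HFD 1 (0.0431).

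Both ketone body genes of the list were called higher in HFD_HDCA than in ND, and they stood above ND in every HFD liver too. Acat1, on chromosome 9 from 53580522 to 53610382, encodes the thiolase that joins acetyl-CoA units to acetoacetyl-CoA. It stood at 437, 524 and 491 CPM in ND, 623, 923 and 730 in HFD and 724, 968 and 985 in HFD_HDCA. Every liver on high-fat feeding was above every ND liver, while HFD and HFD_HDCA overlapped. Against ND the log2 fold change was 0.65 ± 0.17 (SE, edgeR adjusted p = 0.153) in HFD and 0.88 ± 0.18 (adjusted p = 0.0184) in HFD_HDCA. The second ended without ND 1 (0.0990), ND 2 (0.0533), ND 3 (0.0659) or HFD_HDCA 3 (0.0692).

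Bdh1, on chromosome 16 from 31422280 to 31458901, encodes the enzyme that turns acetoacetate into 3-hydroxybutyrate. Its values were 254, 274 and 204 CPM in ND, 347, 497 and 376 in HFD and 348, 431 and 435 in HFD_HDCA. Both high-fat groups were above ND, and they did not separate from each other, with a log2 fold change between them of -0.01 ± 0.17 (SE, edgeR adjusted p = 0.983). Against ND it was 0.74 ± 0.17 (adjusted p = 0.0860) in HFD and 0.73 ± 0.17 (adjusted p = 0.0330) in HFD_HDCA. As with Acadsb, near-equal shifts fell on different sides of the threshold. HFD passed without HFD 1 (0.0486), and the HFD_HDCA call ended without any of the 3 ND livers (0.0692 to 0.123), HFD_HDCA 2 (0.0516) or HFD_HDCA 3 (0.109).

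For HFD against ND the count of 0 called members depended on the test. At an unadjusted p under 0.05 edgeR had 5 members higher and 2 lower, beside 6.67% and 4.83% of all genes. DESeq2 called Hadh, Acat1 and Bdh1 higher and Acadsb lower, 4 members beside 3.02% of all genes in either direction. Limma on FPKM called Hadh. With HFD 1 and HFD_HDCA 1 both left out, edgeR called Acsl5, Hadh, Acat1 and Bdh1 higher and Acadsb lower, beside 2.11% and 2.43% of all genes.

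The count for HFD_HDCA against HFD, 3, became 0 without ND 1, HFD 3 or HFD_HDCA 3, and 4 without HFD_HDCA 1. All genes called there, in either direction, went from 428 to 217, 153, 127 and 405 in the same order. ND 1 is in neither group, but all 9 libraries share the estimate of spread. Acsl1, Slc22a5, Slc25a20, Acadl, Hadhb and Decr1 were called by DESeq2, 6 in all, beside 4.63% of all genes called higher. The clock gene Per2 was also called lower in this comparison (log2 fold change -2.29 ± 0.35, SE, edgeR adjusted p = 0.0128). It stood at 18.4, 8.46 and 11.7 CPM in ND, 30.8, 15.4 and 20.4 in HFD and 3.51, 4.24 and 5.84 in HFD_HDCA. Against ND, too, 1 of the 4 clock genes followed was called lower in HFD_HDCA. The part of Per2 in the members' values was not tested. With HFD 1 and HFD_HDCA 1 both left out, 4 members were called higher in HFD_HDCA than in HFD, beside 4.19% of all genes. The 13 members called higher against ND became 2 without ND 1, 7 without ND 2, 3 without ND 3 and 5 without HFD_HDCA 3, and 16 without HFD_HDCA 1. All genes called against ND, in either direction, went from 815 to 196, 344, 332, 308 and 687 in the same order. With HFD 1 and HFD_HDCA 1 both left out, 18 members were called higher and 3 lower against ND, beside 4.83% and 4.29% of all genes. The 2 members called lower became 0 without ND 1, ND 2, ND 3, HFD_HDCA 2 or HFD_HDCA 3 and 1 without HFD 2. All genes called against ND rose to 1213 without HFD_HDCA 2. Without HFD 2, the library with the highest adipocyte markers, Acsl1, Slc25a20 and Hadhb were called higher in HFD_HDCA than in HFD, so that Acsl1 passed and Slc22a5 did not. In the same fit 13 members were called higher in HFD_HDCA than in ND and 0 in HFD against ND. All genes called in it numbered 199 for HFD_HDCA against HFD, 784 for HFD_HDCA against ND and 40 for HFD against ND.

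Of 32 other genes of the pathway reported here, 24 passed the filter. In HFD_HDCA against ND 3 of these 24 were called higher and 0 lower, in HFD_HDCA against HFD 2 were higher and 0 lower, and in HFD against ND 1 was higher and 1 lower. Their median log2 fold changes were 0.06 for HFD against ND, -0.05 for HFD_HDCA against HFD and -0.09 for HFD_HDCA against ND. Many of these act in amino acid breakdown or are forms typical of other organs.

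Slc16a7, encoding the monocarboxylate transporter MCT2, was at 36.0 ± 4.996, 68.7 ± 9.15 and 65.8 ± 10.9 CPM in ND, HFD and HFD_HDCA (SD, n = 3 each). It was called against ND in both high-fat groups, at log2 fold changes of 0.93 ± 0.16 (SE, edgeR adjusted p = 0.0235) and 0.87 ± 0.16 (adjusted p = 0.0119).

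Eci2, an isomerase of mitochondria and peroxisomes, and Mlycd, which breaks down the malonyl-CoA that inhibits CPT1, were called higher in HFD_HDCA than in either other group. Eci2 stood at 225, 284 and 194 CPM in ND, 265, 209 and 177 in HFD and 387, 380 and 422 in HFD_HDCA, a rise of 0.87 ± 0.18 against HFD (SE, edgeR adjusted p = 0.0290) and 0.76 ± 0.18 against ND (0.0318). Mlycd stood at 91.9, 105 and 89.2 CPM in ND, 92.1, 99.4 and 86.2 in HFD and 120, 138 and 138 in HFD_HDCA, a rise of 0.51 ± 0.11 against HFD (adjusted p = 0.0367) and 0.47 ± 0.11 against ND (0.0330). For both genes the HFD_HDCA livers lay above all others while ND and HFD overlapped, as for Slc22a5 and Slc25a20. Acsm2, of the medium-chain synthetase cluster, fell by 2.93 ± 0.57 from ND to HFD (adjusted p = 0.0421) but was rare, at 2.83 ± 0.713 CPM in ND and 0.363 ± 0.183 in HFD (SD, n = 3 each).

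Cyp4a14, a fatty acid hydroxylase known as a sensitive PPARα target, gives a scale for these shifts. It was at 427, 1035 and 111 CPM in ND, 788, 1357 and 821 in HFD and 2952, 6283 and 6641 in HFD_HDCA. Its log2 fold change was 3.34 ± 0.75 against ND (SE, edgeR adjusted p = 0.0395) and 2.42 ± 0.72 against HFD (adjusted p = 0.108). HFD_HDCA 1 was the lowest of its group in Cyp4a14, as in Slc22a5, Crat and Acsl1. Ppara itself stood at 320 ± 21.5, 397 ± 30.1 and 497 ± 159 CPM in ND, HFD and HFD_HDCA (SD, n = 3 each), with HFD_HDCA 1 at 315, within the ND range, and was not called (adjusted p = 0.0981 against ND).

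Genes of the tricarboxylic acid cycle, which burns acetyl-CoA in the same compartment, were followed for comparison. The list of 16 genes also held Pdha1 and Pdhb, which encode subunits of pyruvate dehydrogenase and not of the cycle. Its median log2 fold changes were 0.08, -0.16 and -0.09 for HFD against ND, HFD_HDCA against HFD and HFD_HDCA against ND. Only Suclg1, a subunit of succinyl-CoA ligase, was called, at 0.40 ± 0.11 against ND in HFD_HDCA (SE, edgeR adjusted p = 0.04999). Cs, the citrate synthase gene, was at 153 ± 7.39, 183 ± 47.0 and 115 ± 9.15 CPM in ND, HFD and HFD_HDCA (SD, n = 3 each), with an adjusted p of 0.0634 against HFD. Of the 10 hepatocyte markers 3 (Cps1, Hnf4a and Tat) were called lower in HFD_HDCA than in ND and 0 higher.

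By gene models on GRCm38 (GENCODE M21), the members lay on 13 chromosomes. Spans of 10 members overlap a protein-coding gene on the other strand, among them Acadsb, Acsm5 and Crat, and whether the counting used strand was not stated, so some of their reads could belong to the partner. Acad11 and Etfb overlap a coding gene model on their own strand.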

How the data were processed

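RNA from 9 livers was sequenced by the submitters with a TruSeq RNA kit, per the labels' protocols. Cufflinks 2.0.2, TopHat 1.3.2 and mm10 are listed, per the submitters' processing notes, with no role given. The deposited count tables hold whole-number HTSeq counts per gene, per the labels of the files, and were used with no normalization by the authors. Their names carry the word antisense, a setting not given in the sources used here. The deposited Cufflinks tables hold FPKM made by the authors, per the file headers. In some of these tables symbols had turned into dates, so 25 symbols were left out and 23259 were shared.

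Groups and replicate numbers came from the sample titles. Counts were tested in R 4.3.3 with edgeR 4.0.16: filterByExpr with a minimum count of 10, TMM scaling, all 9 libraries in 1 model by diet, and robust quasi-likelihood F tests, two-sided, with Benjamini-Hochberg adjustment over 12587 genes. A gene was called at an adjusted p under 0.05. Levels within a gene are TMM-scaled CPM, and SE is the fold change divided by the square root of F. Sums over members or markers are CPM without TMM factors. Rows for reads on no gene were left out. Genes took 63.9 to 67.4% of the reads of a file in ND, 69.1 to 72.2% in HFD and 68.4 to 70.0% in HFD_HDCA. Reads without a unique alignment took 16.6 to 19.4% in ND, 13.3 to 14.0% in HFD and 14.6 to 16.0% in HFD_HDCA. Both shares separated ND from the other groups, and their part in the differences from ND was not tested. The 3-read floor covers counting error only, as reads carry no molecular identifiers. Replicates differed by more than counting error (chi-square per degree of freedom 11.7 to 96.4). The fitting was tested on simulated data. Alternatives were RLE factors, no filter, DESeq2 1.42.0, only the 6 libraries compared, a replicate block, limma 3.58.1 on log2(FPKM + 1) or log2(FPKM + 0.1) for genes with a mean FPKM of at least 0.5 or without that filter, and leaving out libraries.

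All 31 members are named. Other pathway genes are named where called in a comparison, and Ppara and Cyp4a14 always; some genes of this rule are left out and not reported here. Genes given to describe libraries, Cs, Suclg1, Per2 and the called hepatocyte markers were chosen after their values were seen. The members and all lists were chosen with earlier results of these data known.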

Additional observations from a re-analysis of the deposited data

How the results depend on the processing

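Over the members' log2 fold changes, 0 values reversed in a called direction under any alternative. Values that changed sign with no call before or after numbered 10 in HFD against ND, 34 in HFD_HDCA against HFD and 4 in HFD_HDCA against ND. Limits are 3 livers per diet, 1 estimate of spread shared by all 9 libraries, and calls near the threshold. The counts of members and of all genes called moved as follows. With DESeq2, 3 members were called higher and 1 lower in HFD against ND and 6 higher in HFD_HDCA against HFD, and 380, 1085 and 1398 genes were called in all in the 3 comparisons (HFD against ND, HFD_HDCA against HFD, HFD_HDCA against ND), beside 120, 428 and 815 by edgeR. With limma on FPKM, 1 member was called higher in HFD against ND with a pseudocount of 1, with 0.1, or without the filter. Without the FPKM filter, 0 members were called higher in HFD_HDCA against HFD, 7 higher and 1 lower in HFD_HDCA against ND, and 273 and 527 genes in all in these comparisons. With only the 6 libraries compared, 1 member was higher in HFD_HDCA against HFD, with 134 genes in all. Without HFD 1 and HFD_HDCA 1 together, 4 members were higher and 1 lower in HFD against ND, with 576 genes in all, and 977 genes were called in HFD_HDCA against HFD. The causes were not tested. RLE factors and the absence of the count filter kept every such count within 1.5 times.

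Leaving out each library in turn gave 0 to 2 members higher, 0 to 1 lower and 32 to 226 genes in all for HFD against ND. For HFD_HDCA against HFD it gave 0 to 4 higher, 0 lower throughout and 127 to 672 genes in all. For HFD_HDCA against ND it gave 2 to 16 higher, 0 to 2 lower and 196 to 1213 genes in all.

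With the replicate number as a replicate block, 5 members were called higher in HFD_HDCA against HFD, and 13 higher and 0 lower in HFD_HDCA against ND, with 82, 328 and 715 genes in all in the 3 comparisons. Deviations of libraries with the same number correlated at -0.146 to 0.154 across genes, 1 of 9 pairs being over 0.1, against -0.139 to 0.124 for libraries with other numbers. For 3 of the 9 libraries the best match carried their own number, and these were ND 1, HFD 1 and HFD_HDCA 1. The correlation was 0.154 for ND 1 with HFD_HDCA 1, 0.0919 for ND 1 with HFD 1 and 0.0254 for HFD 1 with HFD_HDCA 1. With 3 livers per diet this check cannot show whether libraries with the same number shared a cage, a litter or anything else.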
